A study of Mus musculus with 32 samples.

Results

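The genes described here make polyunsaturated fatty acids and load them into membrane phospholipids: the desaturase genes Fads1 and Fads2, the elongase genes Elovl2 and Elovl5, the lysophospholipid acyltransferase genes Lpcat1, Lpcat3 and Mboat7, and the long-chain acyl-CoA synthetase genes Acsl3, Acsl4 and Acsl5. They were taken by symbol from a table of 55487 genes, and 10 of 10 had a row each and passed the filter on low counts that left 14903 genes to test. RNA was from whole livers of WT and FAAH-S268D mice, and the mice had been 28 weeks on the HFFC diet with or without ARA; in the sample labels these diets are NASH and NASH-AA, with no abbreviation spelled out. The groups were WT NASH, WT NASH-AA, FAAH S268D NASH and FAAH S268D NASH-AA, with 8 libraries in each and 32 in all. The HFFC diet was thus common to the 4 groups, and no group on another diet was analysed here. S268D is a single-residue substitution in fatty acid amide hydrolase, encoded by Faah, and the labels do not say how the substitution was made or in which cells it is present. They also do not say whether replicates were separate animals, so p-values measure the spread between these libraries, which may in part be technical. The series title asks about arachidonoyl-taurine, hepatic steatosis and inflammation.

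Polyunsaturated fatty acids are built from essential dietary precursors by alternating desaturation and elongation in the endoplasmic reticulum, and arachidonic acid is a main product. Acyl-CoA synthetases activate free acids, and acyltransferases place the activated acids on lysophospholipids, a cycle of removal and replacement of acyl chains that sets membrane composition. In liver, SREBP-1, LXR and PPARalpha are well known transcriptional regulators of the desaturases and elongases, and dietary polyunsaturated fatty acids are known to lower SREBP-1 activity.

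The promoters below were taken from RefSeq (GRCm38.p6) to show the start regions of genes that varied together between libraries (Fads2, Elovl5, Acsl3) and of a gene that did not vary with them (Lpcat1). Of the 10 genes, 9 had an entry; Fads1 had none. Each line gives the 250 bases before the RefSeq start of transcription, 5′ to 3′ on the gene's own strand. Capitals mark matches on either strand to 6 motifs. These were the CCAAT box, the GC box in the form GGGCGG, a sterol response element with the letters TCACNCCAC, the E-box CACGTG, and a pair of AGGTCA repeats spaced by 4 bases (DR4, an element of LXR) or by 1 base (DR1, an element of PPAR). The windows are Fads2 at chr19:10101504-10101753 (minus strand), Elovl5 at chr9:77917115-77917364 (plus strand), Acsl3 at chr1:78657575-78657824 (plus strand) and Lpcat1 at chr13:73466981-73467230 (plus strand).
Fads2: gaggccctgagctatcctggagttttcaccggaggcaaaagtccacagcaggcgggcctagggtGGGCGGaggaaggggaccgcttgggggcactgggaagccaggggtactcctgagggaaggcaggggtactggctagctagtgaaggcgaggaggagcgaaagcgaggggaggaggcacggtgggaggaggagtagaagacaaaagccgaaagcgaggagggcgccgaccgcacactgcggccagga
Elovl5: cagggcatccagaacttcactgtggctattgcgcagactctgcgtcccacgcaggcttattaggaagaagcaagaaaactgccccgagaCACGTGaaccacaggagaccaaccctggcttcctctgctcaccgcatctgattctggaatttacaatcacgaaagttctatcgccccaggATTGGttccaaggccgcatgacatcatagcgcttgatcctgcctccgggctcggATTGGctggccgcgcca
Acsl3: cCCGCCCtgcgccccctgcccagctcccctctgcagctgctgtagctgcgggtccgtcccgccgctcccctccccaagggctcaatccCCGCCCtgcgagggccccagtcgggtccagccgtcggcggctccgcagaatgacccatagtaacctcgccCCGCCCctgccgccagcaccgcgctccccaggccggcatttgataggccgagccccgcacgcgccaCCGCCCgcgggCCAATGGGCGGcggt
Lpcat1: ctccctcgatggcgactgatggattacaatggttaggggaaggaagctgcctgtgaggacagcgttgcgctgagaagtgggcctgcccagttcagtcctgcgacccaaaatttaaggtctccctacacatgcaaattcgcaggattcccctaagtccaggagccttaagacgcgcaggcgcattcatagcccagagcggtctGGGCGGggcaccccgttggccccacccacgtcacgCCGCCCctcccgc
Fads2 held 1 GC box, Elovl5 held 2 CCAAT boxes and 1 CACGTG, Acsl3 held 1 CCAAT box and 5 GC boxes of which 1 directly adjoined the CCAAT box, and Lpcat1 held 2 GC boxes. Among 32851 mouse windows of the same length, 33.85% held the CCAAT box, 32.74% the GC box and 6.021% the E-box. The sterol response element was in 1.053%, DR1 in 0.03348% and DR4 in 0.01522% of windows, and none of the 4 printed windows held any of these 3. The gene annotation used for exon lengths begins Fads2 at 10101746 and Lpcat1 at 73467197, inside these windows. By that annotation, most of the Fads2 window and the last bases of the Lpcat1 window lie within the gene. These are letter matches, not measured binding sites.

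Total counts per library ran from 3851626 to 34370178, with a median of 22896702; the shallowest was FAAH S268D NASH replicate 1, and the next was at 14743252. Levels are given as CPM, counts scaled by library total, after trimmed-mean normalisation between libraries. The labelled tissue carried its defining transcripts: the summed level of 8 hepatocyte markers averaged from 63582 CPM in WT NASH to 91516 CPM in FAAH S268D NASH-AA, whereas Adipoq, Plin1 and Retn of 4 adipocyte markers and Cpa1 and Prss2 of 4 pancreatic acinar markers averaged under 0.1 CPM in every group. Of the other markers in these lists, Plin4 averaged 80.6 to 129 CPM, Cela1 8.17 to 12.1 CPM and Cela2a at most 0.156 CPM. Faah itself lay between 132 and 187 CPM in the 16 WT libraries and between 163 and 227 CPM in the 16 FAAH S268D libraries, so the ranges overlapped. It was higher in FAAH S268D by a log2 change of 0.24 ± 0.04 averaged over the diets (SE; limma-voom adjusted p = 0.000447), which does not check the labels, because the labels describe a substitution and not a deletion. A library that stood apart in these genes was FAAH S268D NASH replicate 3, which was the lowest of its group in 7 of the 10, with Fads1, Fads2, Elovl5, Acsl3 and Acsl5 averaging 2.02 log2 units below the group mean. Its total count was 22866042, so depth was near the median; results that rest on it are given with and without it.

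The 10 genes covered a wide range of abundance. Per kilobase of annotated exon, the order of mean levels in WT NASH was Fads2 at 367 ± 73.0 CPM per kb (SD, n = 8), Elovl5 at 230 ± 80.9, Elovl2 at 109 ± 15.1, Fads1 at 108 ± 24.6, Acsl5 at 73.8 ± 16.7, Lpcat3 at 46.9 ± 4.93, Acsl4 at 10.5 ± 2.10, Mboat7 at 5.54 ± 0.411, Acsl3 at 5.22 ± 0.969 and Lpcat1 at 1.33 ± 0.368. The neighbours Elovl2 and Fads1, and Mboat7 and Acsl3, differed by less than their spread. Exon length was the union over annotated transcripts, which lowers the per-kilobase level of genes with long alternative exons, and no test was made between genes. Reads in the exons that Lpcat3 shares with Emg1, Mboat7 with Tsen34 and Acsl5 with Zdhhc6 on the opposite strand, and Acsl3 with Utp14b on the same strand, could have been assigned to either gene, because the use of strand in counting is not given in the sources used here. Of the 31-base words of each gene's transcripts, those shared with that neighbour made up 9.1% in Lpcat3, 2.54% in Mboat7, 5.97% in Acsl5 and 4.22% in Acsl3.

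**Figure D1:**
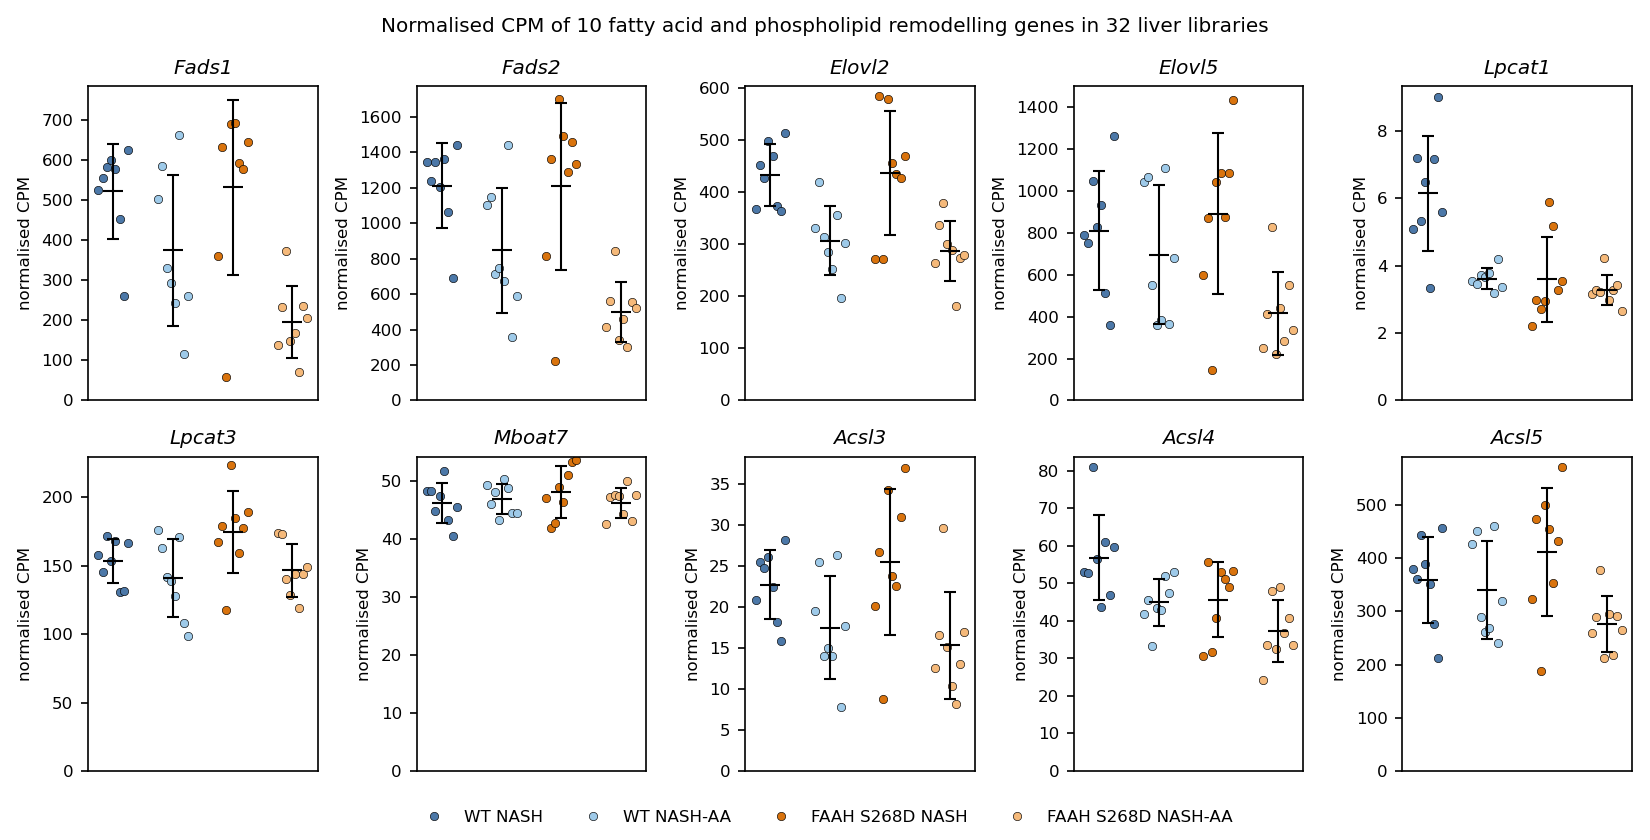
Each panel shows a gene's level in normalised CPM (y axis, linear from 0) in 32 libraries, with groups in colours along the x axis, points for libraries in replicate order, and black marks for the mean ± 1 SD of 8 libraries. The means of Fads1, Fads2 and Elovl5 are lowest in FAAH S268D NASH-AA, where the points overlap with those of the other groups. FAAH S268D NASH has a single low point in each of these genes, and the mean of Lpcat1 is highest in WT NASH.

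Averaged over the genotypes, 6 of the 10 genes were lower on NASH-AA than on NASH: Fads1, Fads2, Elovl2, Lpcat1, Acsl3 and Acsl4 (limma-voom, Benjamini-Hochberg adjusted over all genes tested). In that comparison 10.9% of all genes tested passed the threshold of 0.05, and 6.27% passed it in the lower direction. The sign was negative for 10 of 10, with a median log2 change of -0.49, against a median of 0.01 and 47.9% negative over all genes. The 10 genes were chosen with earlier results of these data known, and several of them varied together between libraries. Their signs are therefore not 10 separate observations. Leaving out single libraries moved the count of 6 between 3 (without FAAH S268D NASH replicate 5) and 9 (without FAAH S268D NASH replicate 3), and over all genes the count of 1624 between 1001 (without FAAH S268D NASH replicate 5) and 2706 (without WT NASH replicate 5). Library numbers 1 to 16 alone called 0 of the 10, where 0.0351% of all genes were called lower. The most negative log2 changes were those of Fads1, Fads2 and Elovl5, the last of which did not pass, and Mboat7, the acyltransferase that puts arachidonic acid on phosphatidylinositol, had the smallest change, at -0.02 ± 0.04 (log2, SE).

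Fads1 encodes delta-5 desaturase, which carries out the last step to arachidonic acid. It lay at 260 CPM in the lowest, 566 in the median and 625 in the highest library of WT NASH, and at 115, 311 and 662 in WT NASH-AA. The lowest, median and highest FAAH S268D libraries were at 57.7, 612 and 693 CPM on NASH and at 70.1, 187 and 371 on NASH-AA. In the FAAH S268D mice, 6 of 8 NASH libraries were above every NASH-AA library; replicate 1, at 360 CPM, lay within their range and replicate 3 was below all of them. The mean change was -0.95 ± 0.28 (log2, SE; limma-voom adjusted p = 0.0271) over both genotypes, and it narrowly missed the threshold without FAAH S268D NASH replicate 5 (adjusted p = 0.0502). Taken singly, WT gave -0.61 ± 0.40 (adjusted p = 0.356) and FAAH S268D gave -1.29 ± 0.39 (adjusted p = 0.158).

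Fads2 encodes delta-6 desaturase, the first and rate-limiting desaturation of the pathway, and it was the most abundant of the 10 genes per length. Its lowest, median and highest libraries were at 690 CPM, 1291 and 1439 in WT NASH, and at 360.0, 728 and 1438 in WT NASH-AA. The corresponding values were 220.3, 1348 and 1699 CPM in FAAH S268D NASH and 303, 488 and 843 in FAAH S268D NASH-AA. On NASH-AA, 8 of 8 FAAH S268D libraries lay below the NASH median, and 7 of 8 WT libraries did so. The mean change over both genotypes was -0.87 ± 0.21 (log2, SE; limma-voom adjusted p = 0.0113); the WT value was -0.59 ± 0.31 (adjusted p = 0.233) and the FAAH S268D value -1.14 ± 0.30 (adjusted p = 0.112).

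Elovl2 and Elovl5 encode the elongases of polyunsaturated acids, Elovl2 acting on the longer substrates and Elovl5 mainly on the shorter ones. Elovl2 was at 364 CPM, 441 and 513 in the lowest, median and highest WT NASH libraries and at 196, 308 and 420 in WT NASH-AA, where 7 of 8 libraries were below every NASH library. It was at 272, 445 and 585 CPM in FAAH S268D NASH and at 181, 285 and 379 in FAAH S268D NASH-AA. The difference was alike in size in the genotypes, WT giving -0.51 ± 0.16 (log2, SE; limma-voom adjusted p = 0.0578) and FAAH S268D giving -0.56 ± 0.16 (adjusted p = 0.137), and its mean of -0.53 ± 0.11 passed (adjusted p = 0.0048). Elovl5 was at 362 CPM, 809 and 1262 in WT NASH and at 359, 616 and 1111 in WT NASH-AA. Its FAAH S268D libraries were at 143, 958 and 1436 on NASH and at 222, 375 and 826 on NASH-AA. Its change of -0.64 ± 0.25 over both genotypes did not pass (limma-voom adjusted p = 0.0935), but passed without FAAH S268D NASH replicate 3 (adjusted p = 0.00832) or without FAAH S268D NASH-AA replicate 3.

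Hepatocyte markers moved the other way from the desaturases. With diet averaged, 5 of 8 were called higher and 1 lower, with a median log2 change of 0.31. Within groups, over 32 libraries, the mean log2 level of these markers was compared with each of the 10 genes in the family of 20 relations that also holds the macrophage markers, and 3 of the 20 passed by Spearman's rho and 0 by Pearson's r after adjustment. For Fads1, rho was -0.52 (permutation p = 0.00146, adjusted 0.0146) and r was -0.43 (permutation p = 0.0316, adjusted 0.194). For Elovl5, rho was -0.54 (permutation p = 0.00121, adjusted 0.0146) and r was -0.50 (permutation p = 0.00733, adjusted 0.147). For Fads2, rho was -0.47 (permutation p = 0.00705, adjusted 0.047) and r was -0.42 (permutation p = 0.0481, adjusted 0.194). Without FAAH S268D NASH replicates 3 and 5, the libraries farthest from the median of the markers, r was -0.22 for Fads1, -0.36 for Elovl5 and -0.20 for Fads2. The remaining genes also had a negative r with these markers, Lpcat1 among them at -0.54. The part of hepatocyte content in the diet results was not tested.

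Within the FAAH S268D mice, the diet comparison called 0 of the 10 genes, where 14 of all genes tested, or 0.0939%, were called. At an unadjusted p under 0.05 it had 8 of the 10, beside 1845 of the 14903 genes tested. Limma-trend also called 0 after adjustment, and the sign was negative for 10 of 10. The 3 largest differences were those of Fads1, Fads2 and Elovl5, whose mean CPM was lower by 63.0%, 58.7% and 53.4% on NASH-AA. Without FAAH S268D NASH replicate 3, 6 of the 10 were lower, with 1.45% of all genes called in that direction. Fads1 then changed by -1.70 ± 0.30 (log2, SE; limma-voom adjusted p = 0.00234), Fads2 by -1.45 ± 0.23 (adjusted p = 0.000646) and Elovl5 by -1.33 ± 0.29 (adjusted p = 0.013), and Elovl2, Acsl3 and Acsl5 passed at -0.64, -0.95 and -0.68. In WT, 1 of the 10 genes was called, Lpcat1, with 4.41% of all genes called in either direction and 2.97% lower. The 657 genes behind that 4.41% became 64 without WT NASH-AA replicate 5. They became 2192 when WT NASH replicate 5 was left out, and leaving out any 1 of 10 more libraries moved the count by over 1.5 times. Elovl2 also passed in WT when any of 5 single libraries was left out (FAAH S268D NASH replicates 1, 3 or 4, WT NASH-AA replicate 2 or WT NASH replicate 5).

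The difference between the diet effects of the genotypes was tested as an interaction, and 0 of the 10 genes and 0 of all genes passed (0%; limma-voom, 627 genes at an unadjusted p under 0.05, Lpcat1 among them as the 1 such gene of the 10; limma-trend called 0 of the 10). For Fads1 the interaction was -0.68 ± 0.56 (log2, SE) with 2 SE reaching from -1.80 to 0.43, for Fads2 -0.54 ± 0.43 and for Elovl5 -0.72 ± 0.51. Without FAAH S268D NASH replicate 3 these were -1.09 ± 0.42, -0.86 ± 0.32 and -1.05 ± 0.41, and none passed (limma-voom adjusted p = 0.945 each). A larger effect of NASH-AA in FAAH S268D was therefore not shown, and the intervals with 32 libraries also hold effects of equal size.

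**Figure D2:**
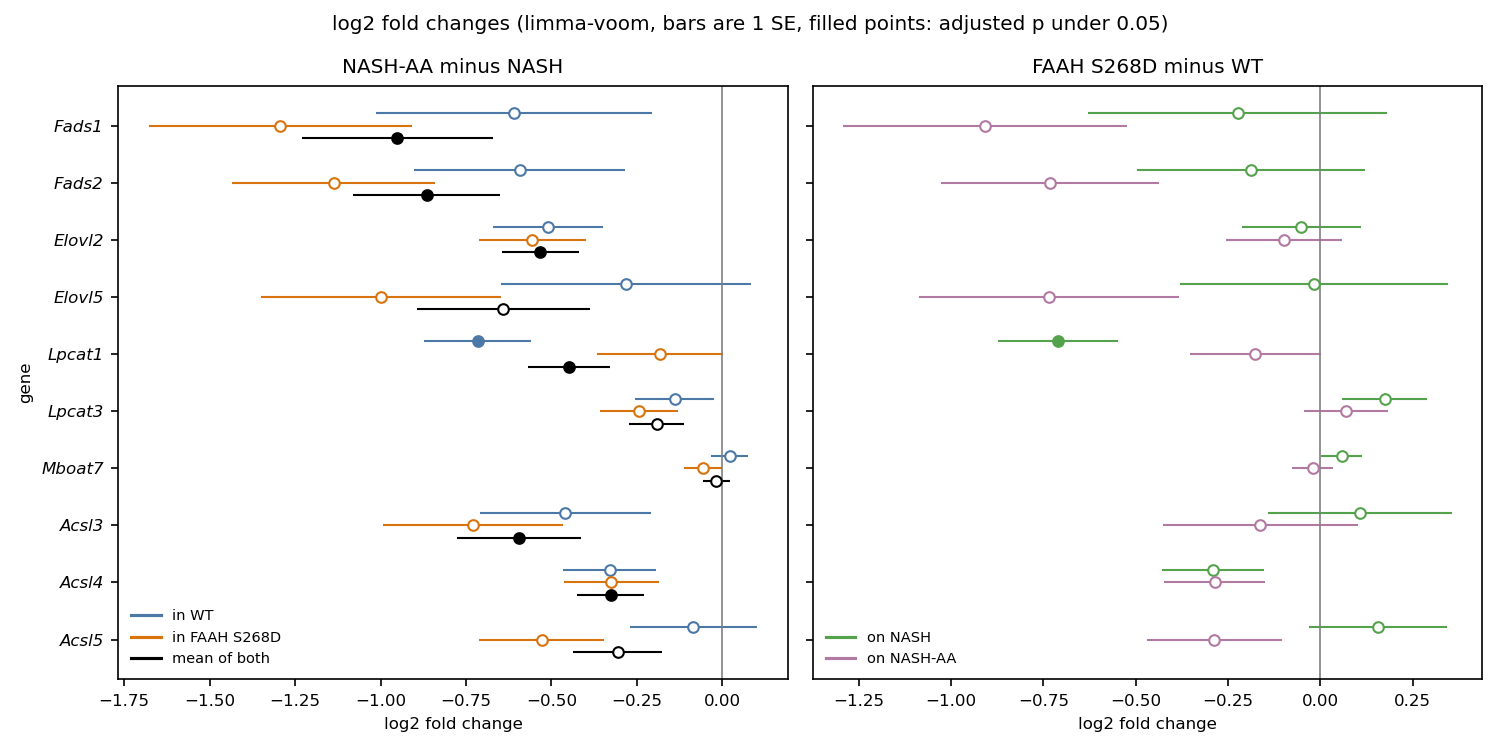
The x axes give log2 fold changes from limma-voom with bars of 1 SE for each of the 10 genes, NASH-AA against NASH on the left (WT, FAAH S268D and their mean) and FAAH S268D against WT on the right (on each diet); filled points passed an adjusted p of 0.05. On the left, 6 of the 10 means are filled and 10 of 10 lie below 0, and on the right Lpcat1 on NASH is the filled point.

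The acyl-CoA synthetases activate free fatty acids by joining them to coenzyme A, Acsl4 with a preference for arachidonic acid. Acsl3, an enzyme of the endoplasmic reticulum and lipid droplets, was at 15.9 CPM, 23.6 and 28.2 in the lowest, median and highest WT NASH libraries and at 7.76, 16.4 and 26.4 in WT NASH-AA. In FAAH S268D it was at 8.82, 25.2 and 36.9 on NASH and at 8.14, 14.1 and 29.7 on NASH-AA. The group ranges overlapped, with 4 of 8 WT libraries on NASH-AA below every WT NASH library. The mean change over both genotypes was -0.59 ± 0.18 (log2, SE; limma-voom adjusted p = 0.0334). It missed the threshold without any 1 of 9 libraries, at adjusted p-values up to 0.0575 (without FAAH S268D NASH replicate 8).

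Acsl4 was at 43.8 CPM, 54.7 and 80.9 in the lowest, median and highest WT NASH libraries and at 33.3, 44.5 and 52.9 in WT NASH-AA. Its FAAH S268D libraries were at 30.7, 50.1 and 55.6 on NASH and at 24.2, 35.2 and 48.9 on NASH-AA. It was lower on NASH-AA, by a log2 change of -0.33 ± 0.10 (SE; limma-voom adjusted p = 0.0291), and lower in FAAH S268D averaged over the diets, by -0.29 ± 0.10 (adjusted p = 0.0384). The diet call was lost without FAAH S268D NASH replicate 5 (adjusted p = 0.0546) and the genotype call without any 1 of 14 libraries. In WT, 8 of 8 NASH-AA libraries lay below the NASH median, as did 8 of 8 in FAAH S268D. Acsl5, which lies in the endoplasmic reticulum and mitochondria, averaged 359 ± 81.4 CPM (SD, n = 8) on NASH and 339.7 ± 91.5 on NASH-AA in WT, against 412 ± 120.1 and 276 ± 52.3 in the FAAH S268D mice. Its mean change with diet was -0.31 ± 0.13 and did not pass (limma-voom adjusted p = 0.118), but passed without FAAH S268D NASH replicate 3 (adjusted p = 0.0211).

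Lpcat1 acylates lysophosphatidylcholine and is best known for the saturated species of lung surfactant. Its mean level was highest in WT NASH and lower in the other 3 groups. The interaction did not pass (log2 0.53 ± 0.24 SE, limma-voom adjusted p = 0.906). The diet change in FAAH S268D and the genotype change on NASH-AA were -0.18 each and not called (limma-voom adjusted p = 0.717 and 0.682). Its lowest, median and highest libraries were at 3.33 CPM, 6.04 and 9.0 in WT NASH and at 3.21, 3.61 and 4.19 in WT NASH-AA. The FAAH S268D values were 2.21, 3.14 and 5.89 on NASH and 2.67, 3.24 and 4.23 on NASH-AA. In WT NASH, 7 of 8 libraries were above every WT NASH-AA library, and replicate 5 lay inside their range. Of the 8 FAAH S268D NASH libraries, 5 were below every WT NASH library, and replicates 5 and 6 were the highest. Lpcat1 was lower on NASH-AA in WT by a log2 change of -0.72 ± 0.16 (SE; limma-voom adjusted p = 0.0175) and lower in FAAH S268D on NASH by -0.71 ± 0.16 (adjusted p = 0.00754). In the genotype comparison on NASH it was the 1 gene called of the 10, with 9.19% of all genes called and 6.3% lower; over all genes the 1370 calls became 492 without FAAH S268D NASH replicate 4 and 2642 without WT NASH replicate 5. Both comparisons rest on the same WT NASH libraries. Both calls held without any 1 library, at adjusted p-values up to 0.0492 and 0.0304. The genotype call on NASH was lost when those 2 groups were fitted alone (limma-voom adjusted p = 0.0943), and the diet call in WT was lost in the fit with a replicate block.

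Macrophage transcripts moved in the same direction as Lpcat1. The summed level of 10 Kupffer cell and macrophage markers averaged 1291 CPM in WT NASH (672 to 1711) and 919 in WT NASH-AA (782 to 1041). In FAAH S268D it averaged 757 on NASH (504 to 899.7) and 678 on NASH-AA (476 to 839.5), and none of the 10 was at 0 in every library. In FAAH S268D on NASH, 7 of these 10 were called lower, with a median of -0.72, and 4 of 6 lipid-associated macrophage markers were called lower, with a median of -1.01. With diet in WT, 0 of 10 and 1 of 6 were called, with medians of -0.44 and -0.87. Macrophage markers were not alone: in FAAH S268D on NASH, 4 of 5 T and NK cell and 2 of 3 neutrophil markers were called lower, with medians of -1.01 and -1.12. Stellate cell markers had 0 calls and 6 of 6 negative, while 3 of 8 hepatocyte markers were called higher and 0 of 4 B cell markers were negative. Within groups, over 32 libraries, Lpcat1 and the mean log2 level of the macrophage markers had Pearson's r = 0.39 (permutation p = 0.0659, adjusted over 20 relations 0.194) and Spearman's rho = 0.24 (permutation p = 0.226, adjusted 0.251), and r was 0.27 without the 2 libraries farthest from the median. With the hepatocyte markers Lpcat1 had r = -0.54 (permutation p = 0.0154, adjusted 0.154), the largest r in size of the 20 relations. Its rho with them was -0.45 (permutation p = 0.0263, adjusted 0.0925), and r was -0.39 without the 2 libraries farthest from their median. In whole liver, fewer cells of a type and less RNA per cell cannot be told apart. The part of macrophage or hepatocyte content in the Lpcat1 result was not tested.

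Lpcat3, the main acyltransferase for arachidonoyl phosphatidylcholine in liver and an LXR target, averaged 153 ± 16.1 CPM (SD, n = 8) on NASH and 141 ± 28.5 on NASH-AA in WT, and 175 ± 29.9 and 147 ± 19.3 in FAAH S268D. Its diet change over both genotypes was -0.19 ± 0.08 (log2, SE; limma-voom adjusted p = 0.114) and did not pass, and it passed without FAAH S268D NASH replicate 3 (adjusted p = 0.033). Mboat7 stayed between 40.6 and 53.5 CPM in 32 libraries. Its diet change had 2 SE from -0.10 to 0.06, an interval narrower than that of the other 9 genes.

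Between genotypes on NASH-AA, 0 of the 10 genes were called, where 0.658% of all genes were (98 genes), and limma-trend called 0. At an unadjusted p under 0.05 there were 4 of the 10, beside 2317 of the 14903 genes tested. Fads1 was at -0.91 ± 0.38 (log2, SE; limma-voom adjusted p = 0.248), Fads2 at -0.73 ± 0.30 (adjusted p = 0.234) and Elovl5 at -0.73 ± 0.35 (adjusted p = 0.312), with 7 of 8 FAAH S268D libraries below the WT median for each. On NASH the desaturases did not pass either, and the signs changed when single libraries were left out. Fads1 gave -0.22 ± 0.40 with 32 libraries and 0.18 ± 0.31 without FAAH S268D NASH replicate 3, while its mean CPM was 1.69% higher in FAAH S268D with that library included. Fads2, Elovl2 and Elovl5 likewise turned from -0.19, -0.05 and -0.02 to 0.13, 0.04 and 0.32. Averaged over diets, Lpcat1 (-0.44 ± 0.12, limma-voom adjusted p = 0.0114) and Acsl4 were lower, against 17.2% of all genes called and 10.3% lower.

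The replicates of a group were not alike in these genes. FAAH S268D NASH replicate 3 had 57.7 CPM of Fads1 where the next library had 360, 220.3 CPM of Fads2 where the next had 813, and 143 CPM of Elovl5 where the next had 601. WT NASH replicate 7 was likewise the lowest of its group in 7 of the 10 genes and the highest in 1, Lpcat1. In the NASH-AA groups, WT replicate 7 and FAAH S268D replicate 6 were lowest in 5 of the 10 each, and FAAH S268D replicate 3 was highest in 6. In these libraries the low or high values were shared by several genes.

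**Figure D3:**
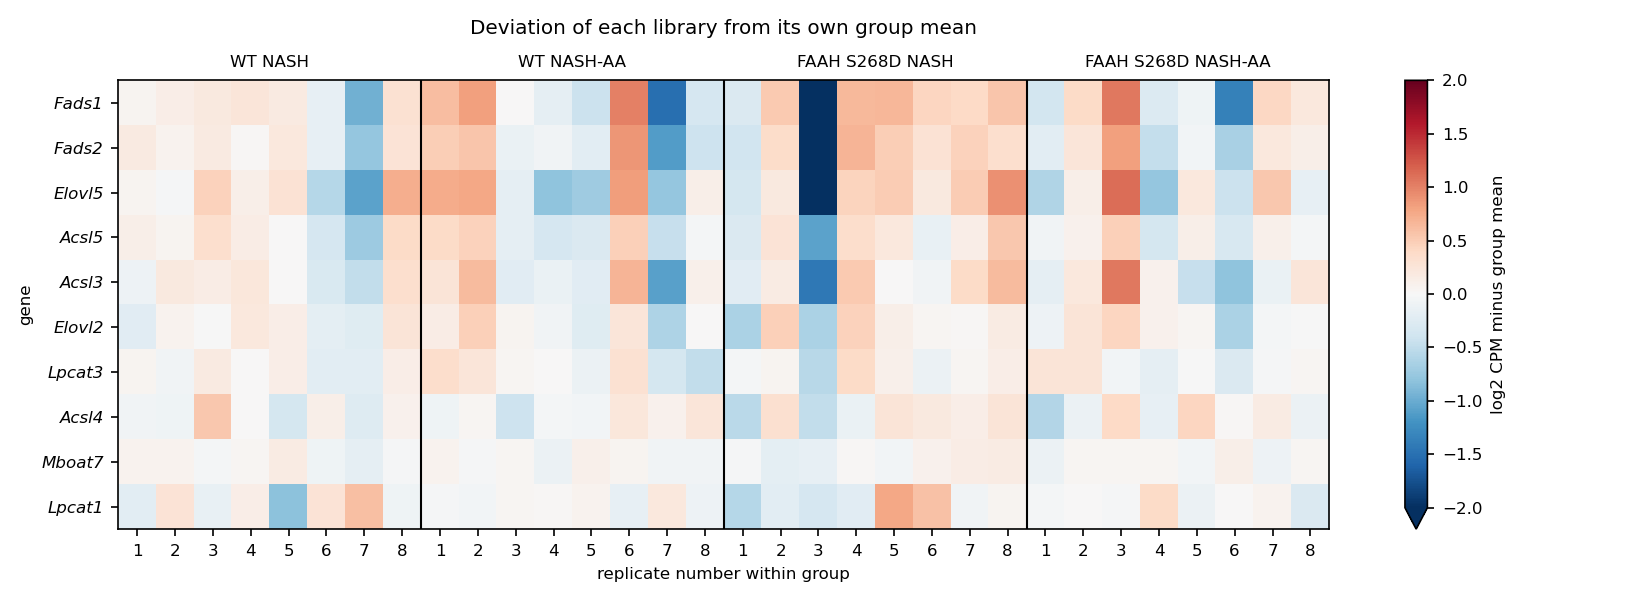
Colours give each library's log2 CPM minus the mean of its own group (scale from -2 to 2, values below -2 at the darkest blue) for 10 genes in rows and 32 libraries in columns, with lines between the groups. FAAH S268D NASH replicate 3 and the replicates 7 of both WT groups show low values across the upper rows, and the Mboat7 row stays near 0.

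After each group's mean was taken off, 45 pairs of the 10 genes were compared over 32 libraries, and 28 had a permutation p, adjusted over the 45, under 0.05 for Pearson's r; the 28 were positive. Fads1 and Fads2, neighbours on chromosome 19, had r = 0.98 and rho = 0.97, each with an adjusted permutation p at the smallest that 100000 permutations can give (raw p = 1e-05), and r = 0.95 without the 2 farthest libraries. Elovl5 and Acsl5 had r = 0.95 and rho = 0.93 with the same raw permutation p, and r = 0.93 without the 2 farthest. Of 12 pairs with r of at least 0.8, 9 stayed there without those 2 libraries. Lpcat1 had an adjusted p under 0.05 with none of the other 9 genes, its r ranging from -0.20 (Lpcat3) to 0.26 (Acsl4).

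**Figure D4:**
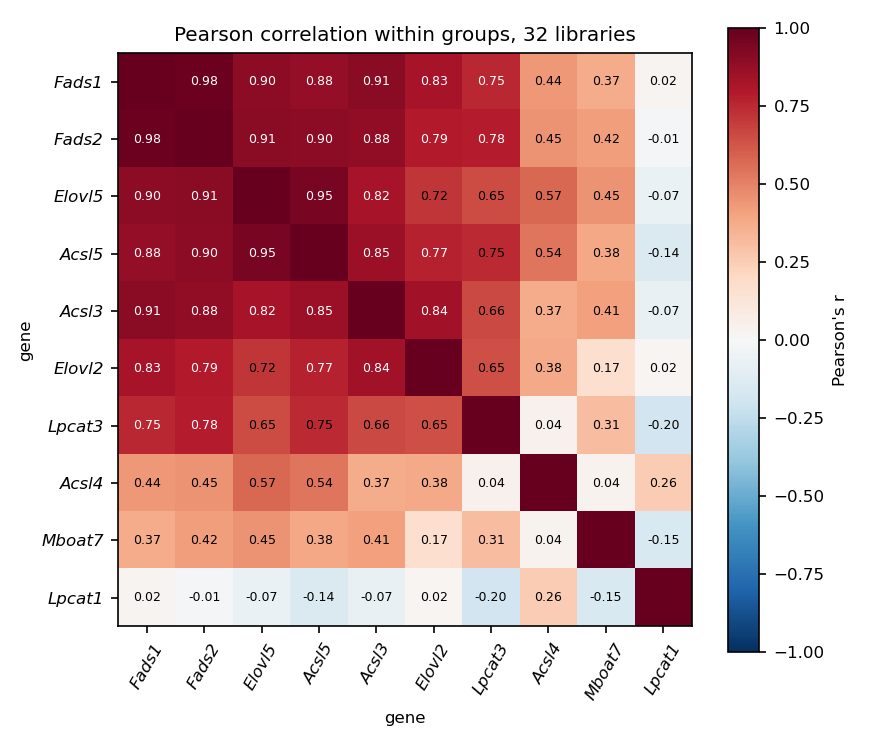
The matrix gives Pearson's r between log2 CPM of each pair of genes over 32 libraries after removal of group means, from blue (-1) to red (1). Fads1, Fads2, Elovl5, Acsl5, Acsl3 and Elovl2 form a block with r from 0.72 to 0.98, and Lpcat1 shows values near 0.

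The genes most alike each of the 10, among 11908 genes of at least 1 CPM and by Pearson's r within groups over the same 32 libraries, included enzymes and regulators of lipid synthesis. Elovl5 was closest to Acsl5, Scd1 (stearoyl-CoA desaturase, r = 0.95) and Me1 (malic enzyme, r = 0.93), and Acsl5 to Me1 (r = 0.97), Elovl5 and Nsdhl (r = 0.95). The genes closest to Acsl3 included Insig1 (r = 0.92) and Sc5d (r = 0.91), of cholesterol control and synthesis, and Elovl2 was closest to Sc5d, Insig1 and Dlat (r from 0.85 to 0.87). Lpcat3 was closest to Tmem97 (r = 0.90), Fdft1 (r = 0.84) and H2-Q10 (r = 0.82). Fads1 and Fads2 were closest to each other and next to Ppp1r3g (r = 0.94 and 0.92), with Ugt1a5 (r = 0.91) following for Fads1 and Elovl5 (r = 0.91) for Fads2. Lpcat1 was closest to Sh3pxd2b, Sdcbp and Rab8b (r = 0.83 each), Acsl4 to Clip1 (r = 0.81), Ppip5k2 and Ralgapb, and Mboat7 to Pigq (r = 0.77), Gna11 and Actr1b. These likenesses describe the libraries and were not tested.

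The remaining genes of the pathway were mostly not called, and those called did not share 1 direction. Of 12 other desaturation and elongation genes, 3 were lower on NASH-AA averaged over the genotypes, beside 6.27% of all genes: the elongases Elovl1 (-0.28 ± 0.07, limma-voom adjusted p = 0.0108) and Elovl7 (-1.56 ± 0.41, adjusted p = 0.0151) and the desaturase-like Fads3 (-0.54 ± 0.15, adjusted p = 0.0241). Elovl7 also passed in WT alone (-1.80 ± 0.47, adjusted p = 0.0326), from 3.51 ± 1.68 CPM (SD, n = 8) in WT NASH to 0.966 ± 0.392 in WT NASH-AA. Cholangiocyte markers were lower beside it: the summed level of 6 averaged 156 CPM in WT NASH (66.4 to 227) and 76.2 in WT NASH-AA (41.3 to 96.2). Most of it was Spp1, which is also among the lipid-associated macrophage markers, and none of the 6 was at 0 in every library. With diet in WT, 1 of the 6 was called lower, with a median of -0.75, and with diet averaged 3 of the 6 were, with a median of -0.54. With genotype averaged, Elovl7 was lower as well (-1.21 ± 0.41, limma-voom adjusted p = 0.0387), while 0 of the 6 markers were called, with a median of -0.10. The part of bile duct cell content in the Elovl7 result was not tested. Of 10 other lysophospholipid acyltransferases, Mboat1 (-1.06 ± 0.27, limma-voom adjusted p = 0.0139) and Agpat3 (-0.13 ± 0.04, adjusted p = 0.0436) were lower with diet averaged, and Mboat1 was under 1 CPM in every library. The median change was -0.10 over the 12 and -0.08 over the 10.

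Of 6 other acyl-CoA synthetases, Slc27a5, which activates bile acids and fatty acids, was higher on NASH-AA averaged over the genotypes (0.29 ± 0.07, limma-voom adjusted p = 0.0147) and higher in FAAH S268D on NASH (0.49 ± 0.10, adjusted p = 0.0054). The 9 genes of peroxisomal chain shortening had 0 calls by limma-voom in the comparisons of diet and of genotype, the smallest p-values with diet averaged being those of Abcd2 (-0.65 ± 0.31) and Acox3 (0.07 ± 0.05). Among 11 phospholipases A, Pla2g4a, the cytosolic enzyme that releases arachidonic acid from membranes, was lower with diet averaged (-0.44 ± 0.15, adjusted p = 0.0468) and lower in FAAH S268D on NASH (-0.85 ± 0.20, adjusted p = 0.00793). Pla2g7, the lipoprotein-associated enzyme of macrophages, was lower in FAAH S268D on NASH as well (-1.10 ± 0.21, adjusted p = 0.00283), beside the lower macrophage markers given above; the part of macrophage content was not tested.

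Head group synthesis had 5 calls of 17 genes with diet averaged, 3 higher and 2 lower, beside 10.9% of all genes called and 6.27% called lower. Chpt1, cholinephosphotransferase, was higher (0.35 ± 0.08, limma-voom adjusted p = 0.00733), as was Etnk2 (0.36 ± 0.11, adjusted p = 0.0352), while Pisd (-0.23 ± 0.04, adjusted p = 0.00162) and Pcyt2 (-0.21 ± 0.06, adjusted p = 0.0228), both of phosphatidylethanolamine synthesis, were lower. In WT alone Cds1 was lower (-0.89 ± 0.18, adjusted p = 0.0175) and Chpt1 higher (0.50 ± 0.11, adjusted p = 0.0196). In FAAH S268D on NASH, Cds1 (-0.74 ± 0.18, adjusted p = 0.0117) and the acyltransferase Lpcat2 (-0.78 ± 0.21, adjusted p = 0.0204) were lower and Agpat2 higher (0.44 ± 0.12, adjusted p = 0.0182).

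Of 13 transcriptional regulators, Mlxipl, which encodes ChREBP (0.27 ± 0.08, limma-voom adjusted p = 0.0258), and Rxra (0.21 ± 0.07, adjusted p = 0.0416) were higher on NASH-AA averaged over the genotypes. Of 17 genes listed as readouts of SREBP and LXR, 3 were lower and 0 higher in that comparison, beside 6.27% of all genes called lower: Sqle, squalene epoxidase (-1.85 ± 0.47, adjusted p = 0.013), Smpdl3a (-0.14 ± 0.04, adjusted p = 0.02) and the cholesterol exporter Abcg1 (-0.39 ± 0.13, adjusted p = 0.041). Their median was -0.23, with 12 of 17 negative. In FAAH S268D on NASH, Abcg1 (-0.69 ± 0.18, adjusted p = 0.0136) and Smpdl3a (-0.19 ± 0.06, adjusted p = 0.0304) were lower too, but 11 of the 17 were positive, with a median of 0.22. With genotype averaged the list had 2 calls higher and 2 lower, beside 17.2% of all genes called. Those higher were Abcg5 (0.36 ± 0.12, limma-voom adjusted p = 0.0312) and Abcg8 (0.39 ± 0.13, adjusted p = 0.032). With diet in FAAH S268D, Sqle was at -2.41 ± 0.76 and did not pass (limma-voom adjusted p = 0.18).

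The diet difference was also read separately in library numbers 1 to 16 and 17 to 32, a split that the labels do not call a batch. In numbers 17 to 32, averaged over the genotypes, 5 of the 10 genes passed as lower, beside 7.62% of all genes, with Fads1 at -1.36 ± 0.33 and Fads2 at -1.14 ± 0.24 (log2, SE; limma-voom adjusted p = 0.0164 and 0.0081). In numbers 1 to 16, which hold FAAH S268D NASH replicates 1 and 3, 0 passed by limma-voom, beside 0.0351% of all genes called lower, with Fads1 at -0.57 ± 0.43 and Fads2 at -0.62 ± 0.35. Lpcat1 in WT had -0.73 ± 0.22 and -0.71 ± 0.24 in the first and second range, and passed in neither (limma-voom adjusted p = 0.372 and 0.13).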

How the data were processed

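Per the labels, RNA of whole mouse livers came from TRIzol, and libraries from polyA RNA were made with a Tecan kit (Universal Plus mRNA-seq). The submitters' processing notes name STAR 2.7.10, UMI-tools 1.1.2, Trim Galore 0.6.7 and the build GRCm38. Which program counted reads, with which annotation and whether by strand, is not given in the sources used here. The authors deposited a single table of estimated counts per gene for the 32 libraries, not scaled between libraries, with many cells altered as text in the way a spreadsheet alters decimals.

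Of 1775584 cells, 87.86% were whole numbers and 11.4% had digit-grouping marks. A further 8232 read as clock times and 1896 as fractions of a day, and fixed rules restored them. Where a cell could be read in more than 1 way (3700 cells, 1 of them in Acsl3), the reading nearer the gene's depth-scaled median was used. Because of the altered cells no count model was used. Restored values were rounded, scaled by trimmed-mean factors computed in R 4.3.3 and fitted with limma 3.58.1 (voom, ~0 + group, all 32 libraries, Benjamini-Hochberg over 14903 genes, threshold 0.05). A gene was kept if at least 8 libraries reached the CPM that 10 counts make at the median library size, and if it had at least 15 counts in all. Correlations used 100000 permutations (numpy 2.4.6, scipy 1.17.1). The test was checked on simulated data.

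The genes and all lists were chosen with earlier results of these data known. Named genes were the 10, the genes past the threshold of each list (at most 4 in a comparison, otherwise the 2 smallest p-values), the 3 genes most alike each of the 10, and Faah. Some genes this rule names are not reported here. Alternatives were other scaling and filters, limma-trend, quality weights, a replicate block, library number ranges, the other reading of ambiguous cells, the 2 groups of a comparison alone, and leaving out each library.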

Additional observations from a re-analysis of the deposited data

Results flagged for a closer look

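In 40 sets of 8 libraries (10 genes in 4 groups), 3 had a highest or lowest library whose gap to the next exceeded Dixon's 95% critical value for its share of the group's range; chance flags about 1 in 20 sets. Fads1 in WT NASH replicate 7 was at 259.6 CPM, below the next library at 452.6. Acsl3 in FAAH S268D NASH-AA replicate 3 was at 29.7 CPM, above the next at 16.97. Acsl4 in WT NASH replicate 3 was at 80.9 CPM, above the next at 60.9. FAAH S268D NASH replicate 3, the lowest library of its group in 7 of the 10 genes, exceeded this value in none of them on linear CPM. The 40 sets were not examined on the log2 scale of the fits. The 3 flags, and the absence of a flag for this library, therefore apply to linear CPM alone. On the log2 scale, Fads1, Fads2, Elovl5, Acsl3 and Acsl5 averaged -2.02 from the group mean in this library. The next lowest library of the group, replicate 1, averaged -0.303.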

How the results depend on the processing

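Of 740 log2 changes of the 10 genes under other settings, 669 kept their direction and their side of the threshold, 24 lost it, 18 gained it and 29 changed sign. The cause was not tested for any. Counts of called genes in this section are of the 10 and are given without the share of all genes called in the same fit. They do not tell these genes apart from the rest. Numbers 1 to 16 alone called 0 of the 10 genes with diet in WT, with diet averaged and with genotype averaged. There the sign changed for Elovl5 (0.0090) and Lpcat3 (0.029) with diet in WT, Mboat7 with diet in FAAH S268D (0.0247) and with diet averaged (0.0248), Mboat7 (-0.0557), Acsl3 (-0.21) and Acsl5 (-0.11) with genotype on NASH, Lpcat3 with genotype on NASH-AA (-0.0698), Acsl3 in the interaction (0.11) and Mboat7 with genotype averaged (-0.0558). Numbers 17 to 32 alone called 0 with diet in WT, 3 with diet in FAAH S268D (Fads1, Fads2 and Elovl2), 0 with genotype on NASH and 0 with genotype averaged. There the sign changed for Fads1 (0.40), Fads2 (0.30), Elovl2 (0.0566) and Elovl5 (0.70) with genotype on NASH, Mboat7 with genotype on NASH-AA (5.08e-05), Acsl4 in the interaction (-0.23), and Elovl5 (0.14), Acsl3 (0.11) and Acsl5 (0.16) with genotype averaged.

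Quality weights called 3 with diet in WT, 7 with diet in FAAH S268D and 1 with genotype on NASH-AA (Fads2), and turned Fads1 (0.00835), Fads2 (0.0399) and Elovl5 (0.23) with genotype on NASH, Acsl4 in the interaction (-0.0754) and Acsl3 with genotype averaged (0.0195). Limma-trend turned Elovl5 with genotype on NASH (0.00431), and median-of-ratios scaling turned Acsl4 in the interaction (-0.00245). Without a filter on low counts 1 gene was called with genotype averaged, and Elovl2 (0.0131) and Elovl5 (0.0431) with genotype on NASH and Acsl4 in the interaction (-0.00999) changed sign. With the 2 groups fitted alone, 2 were called with diet in WT and 0 with genotype on NASH.

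Leaving out each library gave 1 to 2 called genes with diet in WT, 0 to 6 with diet in FAAH S268D, 1 to 1 with genotype on NASH, 0 to 0 with genotype on NASH-AA and in the interaction, 3 to 9 with diet averaged (3 without FAAH S268D NASH replicate 5, 9 without replicate 3) and 1 to 2 with genotype averaged. Signs changed within these ranges: genotype on NASH, Fads1 -0.35 to 0.18, Fads2 -0.29 to 0.13, Elovl2 -0.115 to 0.0656 and Elovl5 -0.16 to 0.32; interaction, Elovl2 -0.165 to 0.0466 and Acsl4 -0.0771 to 0.0814; genotype averaged, Acsl3 -0.115 to 0.0844 and Acsl5 -0.113 to 0.0106; diet in WT, Mboat7 -8.24e-05 to 0.0448.

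Same-numbered libraries of different groups did not deviate together (48 pairs, median r = 0.0049, range -0.38 to 0.33, 13 pairs over 0.1; 5 of 32 libraries correlated best with their own number), so replicate numbers were not taken as pairing. The fit with a replicate block called 0 with diet in WT (Lpcat1 adjusted p = 0.0616, limma-voom), 3 with diet averaged (Fads2, Elovl2 and Lpcat1) and 1 with genotype averaged (Lpcat1). Low depth limits Lpcat1 most, at 2.21 CPM in the shallowest library; without it the genotype change on NASH was -0.68 (limma-voom adjusted p = 0.0121).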
